A study of Mus musculus with 37 samples.

Results

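A set of 10 transcription regulators that mark or set the identity of astrocytes are described here in astrocytes isolated from the cortex of mice after traumatic brain injury. They are the SRY-box factors *Sox9* and *Sox2*, the nuclear factor I (NFI) genes *Nfia*, *Nfib* and *Nfix*, the nuclear receptor gene *Rorb*, the inhibitor of DNA binding genes *Id3* and *Id4*, the zinc finger gene *Zbtb20* and the LIM homeobox gene *Lhx2*. The genes were chosen by name, all 10 were found by their Ensembl identifiers among 21975 rows of both tables, and all 10 passed the filter on low values in every comparison. RNA-Seq had been performed on ACSA-2+ astrocytes, purified with magnetic beads from the ipsilateral and the contralateral cortex 4 months after surgery. The mice were CD1 males by the methods of the study, and their genotype is labelled WT CD31. Injured mice had received a severe controlled cortical impact (CCI), were recorded by EEG and were divided by the development of post-traumatic epilepsy into PTE+ and PTE−, while sham mice had a craniectomy and electrodes but no impact. The 37 libraries came from 20 mice: 4 PTE+, 10 PTE− and 5 sham libraries of the ipsilateral cortex, and 4 PTE+, 9 PTE− and 5 sham libraries of the contralateral cortex. Both hemispheres were present for 17 mice (3 PTE+, 9 PTE− and 5 sham).

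SOX9 and the NFI proteins act together at the switch of neural progenitors from making neurons to making glia, and remain in mature astrocytes, where they keep astrocyte genes on. SOX2 keeps progenitors undifferentiated and stays on in adult astrocytes, ZBTB20 favours astrocyte over neuron production, LHX2 patterns the developing cortex, and RORB is best known from cortical neurons of layer IV but is also made by astrocytes. ID3 and ID4 lack a DNA-binding domain, are induced by bone morphogenetic protein (BMP) signals and hold basic helix-loop-helix factors away from DNA.

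On the GRCm38 genome (mm10), GENCODE vM21 places *Sox9* (ENSMUSG00000000567) at chr11:112782224-112787760 and *Sox2* (ENSMUSG00000074637), which has 1 exon, at chr3:34650405-34652461. The NFI genes are long: *Nfia* (ENSMUSG00000028565) lies at chr4:97772734-98118874, *Nfib* (ENSMUSG00000008575) at chr4:82290173-82705750 and *Nfix* (ENSMUSG00000001911) at chr8:84699876-84800344. *Rorb* (ENSMUSG00000036192) lies at chr19:18930605-19111196, *Id3* (ENSMUSG00000007872) at chr4:136143497-136145755 and *Id4* (ENSMUSG00000021379) at chr13:48261228-48266026. *Zbtb20* (ENSMUSG00000022708), the longest of the 10 with a span of 766.7 kb, lies at chr16:42875881-43642602 and *Lhx2* (ENSMUSG00000000247) at chr2:38339281-38369733. Exons of *Nfia* overlap those of E130114P18Rik on the other strand, which had a median of 54.8 TPM, and the library kit does not mark strand, so reads of this pair cannot be told apart where they overlap. The partners that overlap *Nfix*, G430095P16Rik and Lyl1, had medians of only 0.42 and 0.16 TPM. Overlaps of *Id4* and *Zbtb20* with genes not listed in the tables were also annotated.

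RefSeq start-site windows of GRCm38.p6 were matched for 8 of the 10 genes (13 windows), and none was matched for *Sox9* and *Nfib*. Since 3 of the 10 regulators are NFI proteins, the windows were searched for TTGGC, the half-site of the NFI motif, on both strands in the 250 bases before the start. This letter run stood in 7 of the 13 windows of these genes and in 41.6% of 32536 windows of all genes. The windows with the most copies belonged to *Id4* (2 copies) and *Rorb* (3 copies, the upstream of its 2 windows). At least 2 copies stood in 11.5% of all windows. They are printed 5′ to 3′ in the direction of the gene, with TTGGC, or GCCAA where it is read on the other strand, in capitals. *Id4* is on the + strand and *Rorb* on the − strand.
Id4, chr13:48260866-48261115: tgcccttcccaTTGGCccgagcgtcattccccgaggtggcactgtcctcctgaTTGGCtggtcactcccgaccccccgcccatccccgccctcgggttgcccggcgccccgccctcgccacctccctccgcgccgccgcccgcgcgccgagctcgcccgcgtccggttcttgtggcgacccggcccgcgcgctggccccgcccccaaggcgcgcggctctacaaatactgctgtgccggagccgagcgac
Rorb, chr19:19111197-19111446: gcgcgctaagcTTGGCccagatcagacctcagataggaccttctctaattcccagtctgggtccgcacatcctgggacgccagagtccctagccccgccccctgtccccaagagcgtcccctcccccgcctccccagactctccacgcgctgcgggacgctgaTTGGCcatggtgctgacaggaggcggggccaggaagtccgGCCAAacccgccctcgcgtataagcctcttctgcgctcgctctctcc
Both copies at *Id4* and 1 copy at *Rorb* read ATTGGC, which is also the reverse of a CCAAT box and stood in 13.5% of all windows. A match of letters is not a measured binding site.

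All 10 genes were well expressed. Levels are given as TPM, the transcript abundance unit of the tables, which are scaled for gene length, so levels can be compared between genes. *Id3* was the highest, with a median of 879 TPM over the 37 libraries and a median rank of 124 among the 21975 rows. *Lhx2* (226 TPM), *Sox2* (223 TPM) and *Id4* (219 TPM) formed a second level: *Lhx2* was above *Sox2* in 19 of 37 libraries and *Sox2* above *Id4* in 18 of 37, so these neighbours could not be ordered. *Sox9* (161 TPM) and *Nfix* (158 TPM) followed, with *Sox9* the higher in 15 of 37 libraries, and these also could not be ordered. *Zbtb20* (91.1 TPM) was above *Nfia* (49.5 TPM) in all 37 libraries, *Nfia* above *Nfib* (36.4 TPM) in 34 and *Nfib* above *Rorb* (24.8 TPM) in 35.

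Within each family the member genes supplied most or a large part of the transcripts. *Nfix* made up a median of 49% of the summed TPM of the 4 NFI genes, *Nfic* 24.5%, *Nfia* 14.9% and *Nfib* 10.4%. *Sox2* made up 95.8% of the SoxB1 genes (*Sox1*, *Sox2*, *Sox3*). Of the SoxE genes, *Sox9* gave 64.5%, *Sox8* 33.8% and *Sox10*, the factor of oligodendrocyte lineage cells, 1.56%. Among the Id genes, *Id3* gave 44% and *Id2* 34.7%, ahead of *Id4* (11.1%) and *Id1* (9.45%). *Rorb* gave 34.1% of the ROR genes and was second to *Rora* (61.4%).

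**Figure D1:**
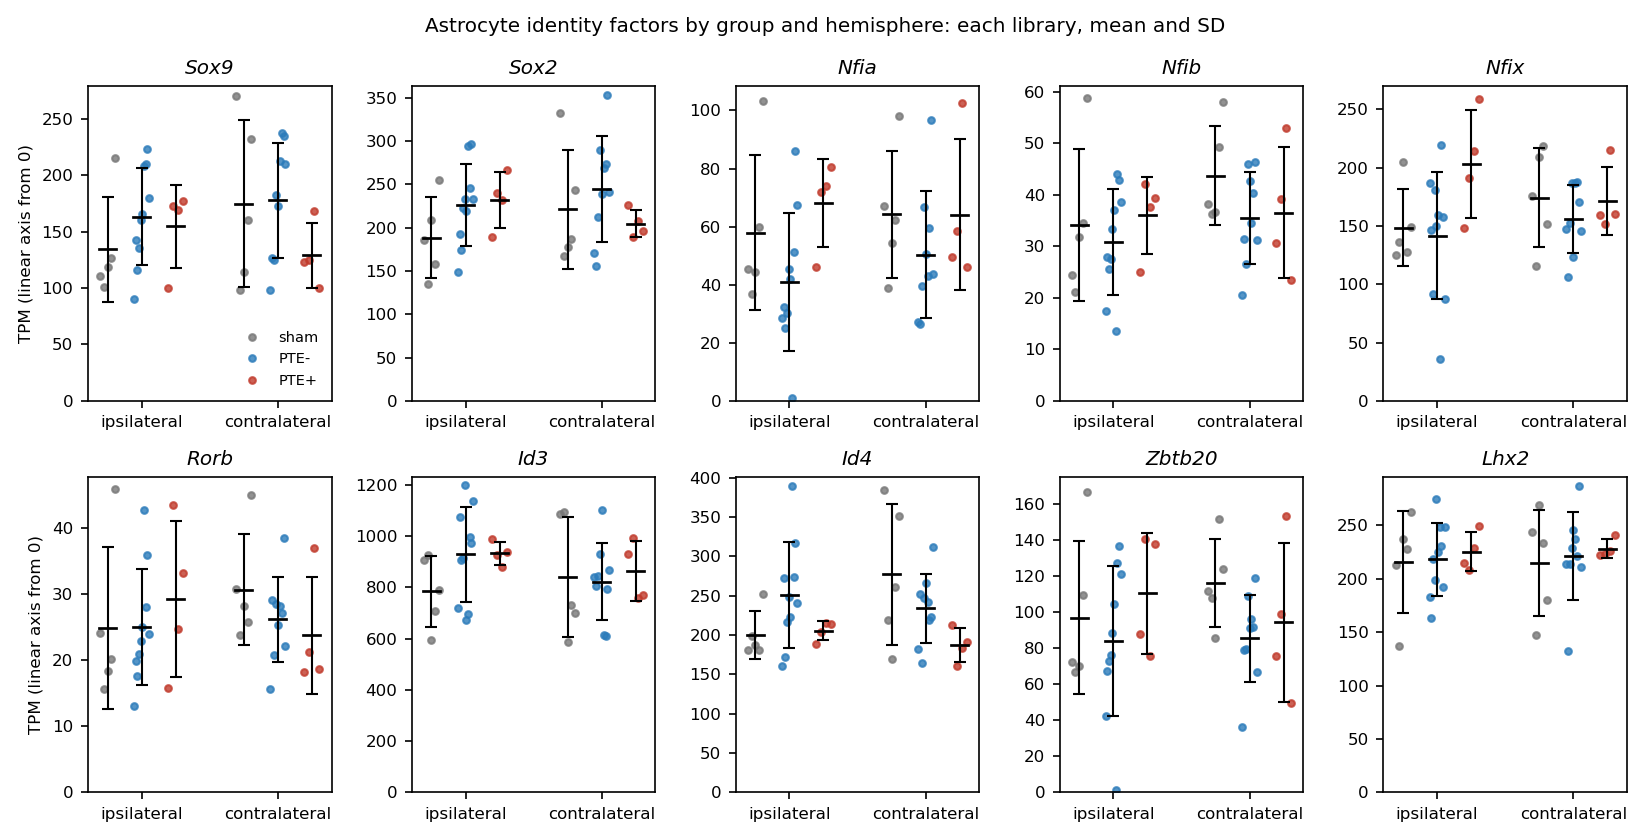
TPM of the 10 regulators on linear axes that start at 0, in ipsilateral and contralateral cortex; each point is a library (sham grey, PTE− blue, PTE+ red) and bars give the mean and SD. The groups overlap for every gene in both hemispheres, and 1 ipsilateral PTE− library lies near 0 for *Nfia* and *Zbtb20*.

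A single library stood apart and touches several results. The ipsilateral library of PTE− mouse 9_14 had 10727 genes above 0, against 15599 to 18319 in the other 18 ipsilateral libraries. In it *Zbtb20* was at 1.14 TPM (42.7 to 167 in the other 18) and *Nfia* at 1.03 TPM (25.1 to 103). *Nfix* (35.9 TPM) and *Nfib* (13.6 TPM) were also below the lowest of the others. *Id4*, in contrast, was at 389 TPM and above all others (161 to 317), and *Sox9* at 208 TPM and *Sox2* at 294 TPM were within their range. The members therefore did not move together in this library, and ipsilateral differences of members that rest on it are given with and without it. Ipsilateral calls of genes outside the members include this library. No contralateral library of this mouse was analysed here, so comparisons within mice did not include it.

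Astrocyte genes had the highest sum in every library, with 22 mature astrocyte genes between 81568 and 119742 TPM (median 98884). *Apoe* alone had a median of 55567 TPM, and the lists of other cells were shorter, with 4 to 10 genes. Markers of other cells were present at lower sums: oligodendrocyte markers at 521 to 4459 TPM, endothelial markers at 330 to 2434, ependymal markers at 201 to 946, neuron markers at 76.3 to 784, microglia markers at 120 to 669, mural and fibroblast markers at 186 to 636 and oligodendrocyte precursor markers at 165 to 418. No marker gene was at 0 in more than 1 of the 37 libraries, and *Mog* (oligodendrocytes), *Cx3cr1* (microglia), *Rbfox3* (neurons) and *Pdgfra* (oligodendrocyte precursors) were among those at 0 in 1. TPM keep no sequencing depth, so the precision of single values is unknown here, and in bulk RNA fewer cells of a type and less RNA per cell cannot be told apart.

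**Figure D2:**
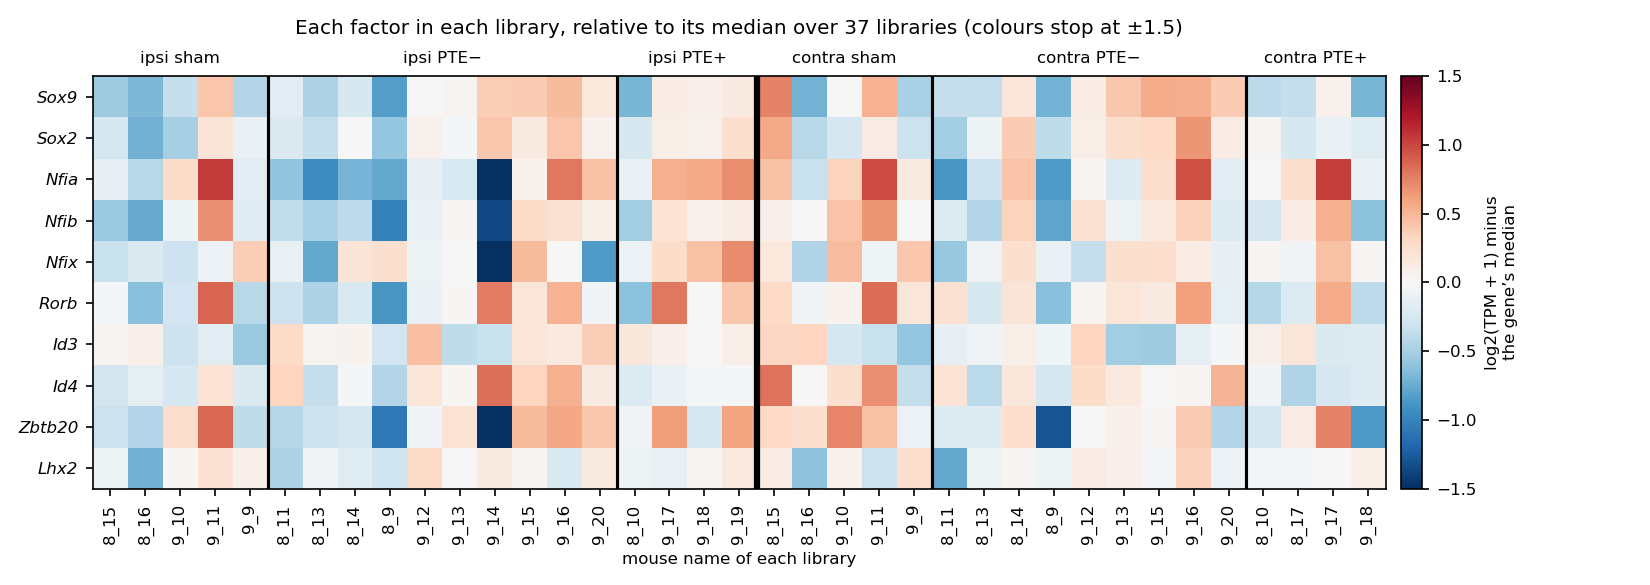
Each of the 10 regulators (rows) in each of 37 libraries (columns, by mouse name), as log2(TPM + 1) minus the gene's median; thin lines separate groups and the thick line the hemispheres, and colours stop at 1.5 either way. The column of ipsilateral PTE− mouse 9_14 is lowest for *Nfia*, *Nfib*, *Nfix* and *Zbtb20* and highest for *Id4*.

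The first question was whether injury changed the identity factors in the injured hemisphere. A differentially expressed gene (DEG) had to differ 1.2-fold or more, with p under 0.05 before adjustment. None of the 10 was a DEG in ipsilateral CCI compared to sham, where 1.62% of all genes tested were. The test was limma on log2(TPM + 1), and fold changes (log2FC) are on that scale. The changes of the members ranged from −0.48 to 0.28, with a median of 0.08 beside −0.01 for all genes tested. In the 4 main comparisons (CCI against sham and PTE+ against PTE− in each hemisphere) no member had an unadjusted limma p under 0.05. Between 63 and 472 of all genes did, and none had an adjusted p under 0.05.

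*Sox2* and *Id3* came nearest to the threshold. *Sox2* was at 135, 158, 186, 208 and 255 TPM in sham and at 149, 233 and 297 TPM (lowest, median, highest) in the 14 injured libraries. Most injured libraries (12 of 14) were above the sham median, but the ranges overlapped, and the log2FC was 0.28 (SE 0.15, exact permutation p = 0.0858, limma adjusted p = 1). *Id3* was at 596, 706, 790, 906 and 925 TPM in sham and at 674, 932 and 1198 TPM in the injured libraries. Here 8 of 14 injured libraries exceeded every sham library, with a log2FC of 0.24 (SE 0.13, exact permutation p = 0.0833). Without PTE− mouse 9_14 the log2FC of *Id3* was 0.275 and it was a DEG, where 399 of 10424 genes were called. Without PTE− mouse 8_9 (181 of 10450) or PTE− mouse 9_13 (165 of 10426) *Id3* was also a DEG. The same held without sham mouse 8_15 (162 of 10469) or sham mouse 8_16 (138 of 10470), but in no other such fit. *Sox2* was a DEG in 2 of 19 fits without 1 library, those of PTE− mouse 8_9 and sham mouse 9_11 (415 of 10367). *Sox2* was also a DEG with the first number of the mouse name as a covariate (198 of 10434). With array weights both *Sox2* and *Id3* were DEGs (843 of 10434). Within the mice whose names begin with 9, *Id3* was 0.41 higher in injured than in sham (9 and 3 libraries), and within those that begin with 8 the difference was 0.00 (5 and 2 libraries).

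*Sox9* was at 101, 111, 118, 127 and 216 TPM in sham and at 90.4, 168 and 224 TPM in injured libraries. The sham library of mouse 9_11 was exceeded by only 1 injured library. The log2FC was 0.27 (SE 0.20, exact permutation p = 0.215), and without that sham library it was 0.45 and a DEG. The fit without that library called 415 of 10367 genes, and the fit with all libraries 169 of 10434. *Zbtb20* and *Nfia*, which had the lowest estimates, depended on PTE− mouse 9_14: the log2FC of *Zbtb20* was −0.35 with this library and 0.04 without it, and that of *Nfia* −0.48 and −0.16. *Lhx2* had close means, 216 ± 47.6 TPM in sham (SD, n = 5) and 220.3 ± 29.9 TPM in injured libraries (SD, n = 14), with a 95% interval of its log2FC from −0.21 to 0.32. *Nfix*, *Nfib*, *Rorb* and *Id4* had log2FC of −0.01, −0.06, 0.10 and 0.22. Without PTE− mouse 9_14 they had 0.15, 0.03, 0.04 and 0.17.

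In the same comparison *Gfap*, the filament gene that rises in reactive astrocytes, was a DEG with a log2FC of 1.18, and so was *Aqp4*, the water channel of astrocyte endfeet, with 0.39. Among 16 other astrocyte transcription factors only *Hopx* was a DEG (0.43, higher), and among 13 tested genes of BMP signals and E-proteins only *Nog*, which encodes the BMP antagonist noggin (0.87, higher). None of the 14 tested relatives of the member families passed in either direction. Of 8 tested oligodendrocyte markers 4 were lower, among them *Mog* (−1.75) and *Mag* (−1.53), with summed levels of 521 to 4459 TPM in sham and 774 to 2314 TPM in injured libraries, and 2 of 4 ependymal markers were higher, *Tmem212* (1.08) and *Foxj1* (0.97), with sums of 251 to 661 TPM in sham and 308 to 821 TPM in injured libraries. Their part in the member values was not tested.

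**Figure D3:**
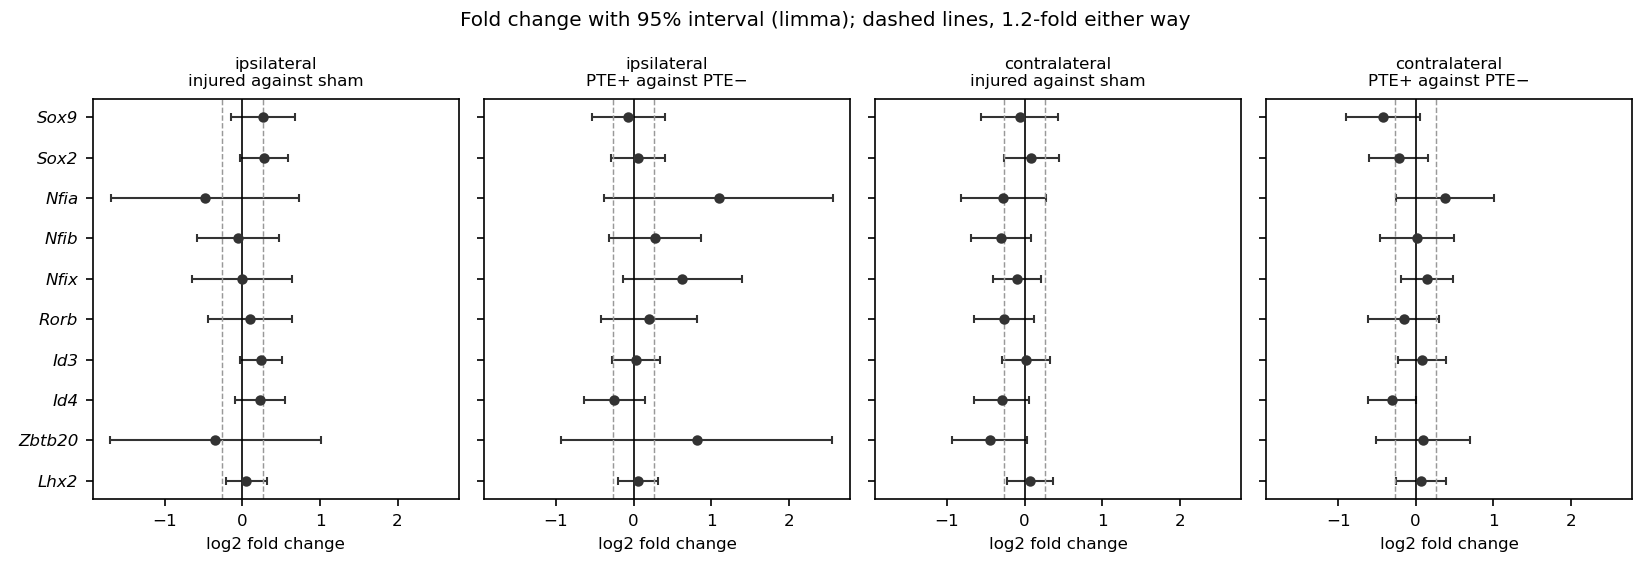
Fold change of each regulator on the log2(TPM + 1) scale with its 95% interval (limma), for CCI against sham and PTE+ against PTE− in each hemisphere; dashed lines mark 1.2-fold either way. Every interval includes 0, and those of *Nfia* and *Zbtb20* are the widest in the ipsilateral cortex.

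The second question was whether mice that developed seizures differed from injured mice that did not. In the ipsilateral cortex none of the 10 was a DEG between PTE+ and PTE−, where 0.573% of all genes were. The 3 NFI genes had higher estimates in PTE+. *Nfia* was at 46.0, 72.0, 74.0 and 80.5 TPM in PTE+ and at 1.03, 37.2 and 86.0 TPM (lowest, median, highest of 10) in PTE−. All 4 PTE+ libraries were above the PTE− median, and none was above the highest PTE− library. The log2FC was 1.10 (SE 0.70, exact permutation p = 0.187), and without PTE− mouse 9_14 it was 0.66 and a DEG (unadjusted limma p = 0.0327). The fit without that library called 197 of 10440 genes, and the fit with all libraries 60 of 10473. *Nfix* was at 148, 191, 214 and 259 TPM in PTE+ and at 35.9, 154 and 219.5 TPM in PTE−. Its log2FC was 0.63 (SE 0.36, exact permutation p = 0.135) and 0.43 without PTE− mouse 9_14. *Nfib* had a log2FC of 0.27 and *Zbtb20* of 0.81, and these fell to 0.16 and 0.28 without that library.

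*Id4* had the opposite sign. It was at 189, 204, 214 and 215 TPM in PTE+ and at 161, 245 and 389 TPM in PTE−, and all 4 PTE+ libraries were below the PTE− median. The log2FC was −0.25 (SE 0.18, exact permutation p = 0.227) and −0.17 without PTE− mouse 9_14. Means were 205 ± 12.2 TPM in PTE+ (SD, n = 4) and 251 ± 67.3 TPM in PTE− (SD, n = 10). All 4 PTE+ values lay within the PTE− range. The study itself, with DESeq2 on raw counts, listed *Id4* among the genes lower in PTE+ in both hemispheres. For *Sox9*, *Sox2*, *Id3* and *Lhx2* the estimates lay between −0.07 and 0.06, and *Rorb* had 0.20. The median of all genes was itself shifted by 0.12 toward PTE+ in this comparison, and the median of the members was 0.13.

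Compared to sham, ipsilateral PTE− astrocytes had 0 member DEGs (1.54% of all genes) and ipsilateral PTE+ astrocytes had 1 (1.56% of all genes). In PTE− against sham, *Nfia* and *Zbtb20* had log2FC of −0.80 and −0.58, and of −0.36 and −0.05 without mouse 9_14. The 1 member DEG in PTE+ was *Nfix*, at 125, 127, 136, 149 and 205 TPM in sham. Among the 4 PTE+ libraries 2 were above every sham library and all 4 were above the sham median. The log2FC was 0.45 (SE 0.19), with an unadjusted limma p of 0.0375, an adjusted p of 1 and an exact permutation p of 0.0794, where the smallest p that 126 arrangements allow is 0.00794. The call was lost in 6 of the 9 fits that left out 1 library, with log2FC between 0.32 (without PTE+ mouse 9_19) and 0.59 (without PTE+ mouse 8_10). It was also lost with each library centred on its median (0.36). All 10 members had a positive estimate in PTE+ against sham, from 0.05 to 0.45, beside a median of 0.08 over all genes. *C1ql1*, listed with the oligodendrocyte precursor markers, was higher in the same comparison (1.28, summed markers 220.0 to 417 TPM in PTE+ and 220.0 to 359 TPM in sham), and its part was not tested.

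In the contralateral cortex, the uninjured hemisphere, 0 of the 10 were DEGs in CCI compared to sham, and 4.05% of all genes were. The estimates of 7 members were below 0, and the median of the members was −0.18 beside −0.07 for all genes tested. *Zbtb20* was at 85.6, 108, 112, 124 and 152 TPM in sham and at 36.5, 91.1 and 153 TPM in the 13 injured libraries. Only 2 of 13 injured libraries were above the sham median and 6 were below every sham library. The log2FC was −0.45 (SE 0.23, exact permutation p = 0.0892). *Id4* was at 170.0, 219, 262, 351 and 385 TPM in sham and at 160.2, 219 and 312 TPM in injured libraries. Again 2 of 13 were above the sham median, and the log2FC was −0.30 (SE 0.17, exact permutation p = 0.12). *Nfib* (−0.30) and *Rorb* (−0.27) had estimates of like size, while *Sox9*, *Sox2*, *Nfix*, *Id3* and *Lhx2* lay between −0.10 and 0.09.

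Split by outcome, the estimate of *Zbtb20* was below sham in both groups. It was a DEG in PTE− against sham (log2FC −0.48, SE 0.22, unadjusted limma p = 0.0433, adjusted p = 0.961), the only member among the 3.76% of all genes called there, with an exact permutation p of 0.0634. In PTE+ against sham *Zbtb20* had −0.39, with a wider spread (49.7, 75.9, 99.2 and 153 TPM). *Id4* was the 1 member called in PTE+ against sham (1.97% of all genes). Its PTE+ values were 160.2, 184, 192 and 213 TPM, all below the sham median, and its log2FC was −0.51 (SE 0.22, unadjusted limma p = 0.0412, adjusted p = 1, exact permutation p = 0.0952). Without 1 library at a time the log2FC of *Id4* ranged from −0.67 to −0.38, and 6 of 9 such fits lost the call. For *Zbtb20* in PTE− the range was −0.58 to −0.34 and 7 of 14 lost it.

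Of 16 other astrocyte transcription factors, 5 were lower DEGs in contralateral CCI against sham, 0 were higher and 11 were neither, beside 4.05% of all genes called. Among the 5 were *Tead1* (−0.84), *Prdm16* (−0.62) and *Zeb2* (−0.45), each with a limma adjusted p of 0.978. The median of the 16 was −0.13, beside −0.07 for all genes. None of the 22 mature astrocyte genes passed in either direction there. The relatives of the member families gave 0 DEGs of 14, and the BMP and E-protein genes 0 of 13. Of the marker lists, 1 microglia gene, *Trem2*, was higher (0.73), with summed microglia markers of 140 to 540 TPM in sham and 156 to 348 TPM in injured libraries, and its part in the member values was not tested. In PTE+ against sham the lower factors were *Hey2* (−0.56) and *Emx2* (−0.55), 2 of 16, and 1 endothelial marker, *Cldn5*, was higher (0.77). In PTE− against sham 3 of 16 factors were lower, *Tead1* (−0.88), *Prdm16* (−0.73) and *Zeb2* (−0.42), and 1 endothelial marker, *Vwf*, was lower (−0.68). Summed endothelial markers were 439 to 1844 TPM in sham.

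Between PTE+ and PTE− in the contralateral cortex, 0 of the 10 were DEGs, where 2.79% of all genes were. *Sox9* and *Id4* came nearest, both lower in PTE+. *Sox9* was at 99.7, 123, 125 and 168 TPM in PTE+ and at 98.1, 182 and 238 TPM in the 9 PTE− libraries. All 4 PTE+ libraries were below the PTE− median but within the PTE− range. The log2FC was −0.43 (SE 0.22, exact permutation p = 0.105, unadjusted limma p = 0.0757). *Id4* was at 165, 242 and 312 TPM in PTE−, and all 4 PTE+ libraries given above lay below this median, 1 of them below every PTE− library. Its log2FC was −0.31 (SE 0.15, exact permutation p = 0.0713, unadjusted limma p = 0.0548). With DESeq2 on raw counts, the study reported *Id4* as lower in PTE+ here too, and its pathway summary showed *Sox9* as lower.

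Both genes crossed the threshold in some settings. With each library centred on its median both were DEGs (*Sox9* −0.49, *Id4* −0.37), where 361 of 10423 genes were called. Both were also DEGs without PTE− mouse 8_9 (344 of 10450) and without PTE− mouse 8_13 (312 of 10434). The fit with all libraries and no centring called 291 of 10423. With the first number of the mouse name as a covariate *Sox9* was a DEG (−0.40, 329 of 10423 genes called) and *Id4* was not (−0.30). The difference of *Sox9* was −0.71 among mice whose names begin with 9 (2 PTE+ and 5 PTE− libraries) and −0.07 among those that begin with 8 (2 and 4 libraries). That of *Id4* was −0.41 and −0.17.

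*Sox2* had a log2FC of −0.22 and *Nfia* of 0.38 in this comparison, and without PTE+ mouse 9_17 that of *Nfia* was 0.13. Of the other lists, the Notch target *Hes1* was lower (−0.40), the only 1 of 16 astrocyte transcription factors called. Of 9 tested endothelial markers 2 were higher, *Tek* (0.80) and *Pecam1* (0.78), with summed endothelial markers of 743 to 2434 TPM in PTE+ and 509 to 1384 TPM in PTE−, and so was 1 neuron marker, *Stmn2* (0.63). Their part in the values of *Sox9* and *Id4* was not tested. Mature astrocyte genes gave 0 DEGs of 22.

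The paired cortices of each mouse gave a further comparison. In the limma fit without the mouse as a block, where differences between mice stay in, none of the members was a DEG between the hemispheres of the 12 injured mice, and 2.71% of all genes were. With the mouse as a replicate block, which removes them, again 0 members were DEGs, and 4.51% of all genes were. *Id3* was the only member with an unadjusted p under 0.05 (limma p = 0.0406 without the block, adjusted p = 1), and its fold of 1.15 was under the threshold of 1.2. Ipsilateral *Id3* exceeded contralateral *Id3* in 10 of 12 injured mice, among them all 3 PTE+ mice (989 and 930.0, 925 and 757, 879 and 770 TPM). The mean difference was 0.21 on the log2(TPM + 1) scale (SD 0.24, exact sign-flip permutation p = 0.0103). With the mouse as a replicate block in limma, *Id3* had a p of 0.00689 and an adjusted p of 0.305. In the 5 sham mice the difference was −0.07 (SD 0.18), above 0 in 2 of 5. *Gfap* differed by 1.21 between the hemispheres of the injured mice in the fit without the block (limma adjusted p = 0.00863). Of the markers of other cells, 3 of 7 tested oligodendrocyte markers (*Mobp*, −0.92), 1 of 9 endothelial markers (*Pecam1*, −0.46) and 2 of 7 mural and fibroblast markers (*Acta2*, −0.66) were lower on the ipsilateral side. Of 4 tested oligodendrocyte precursor markers 1 was lower (*Olig2*, −0.45) and 1 higher (*C1ql1*, 0.52). Their part in the value of *Id3* was not tested.

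**Figure D4:**
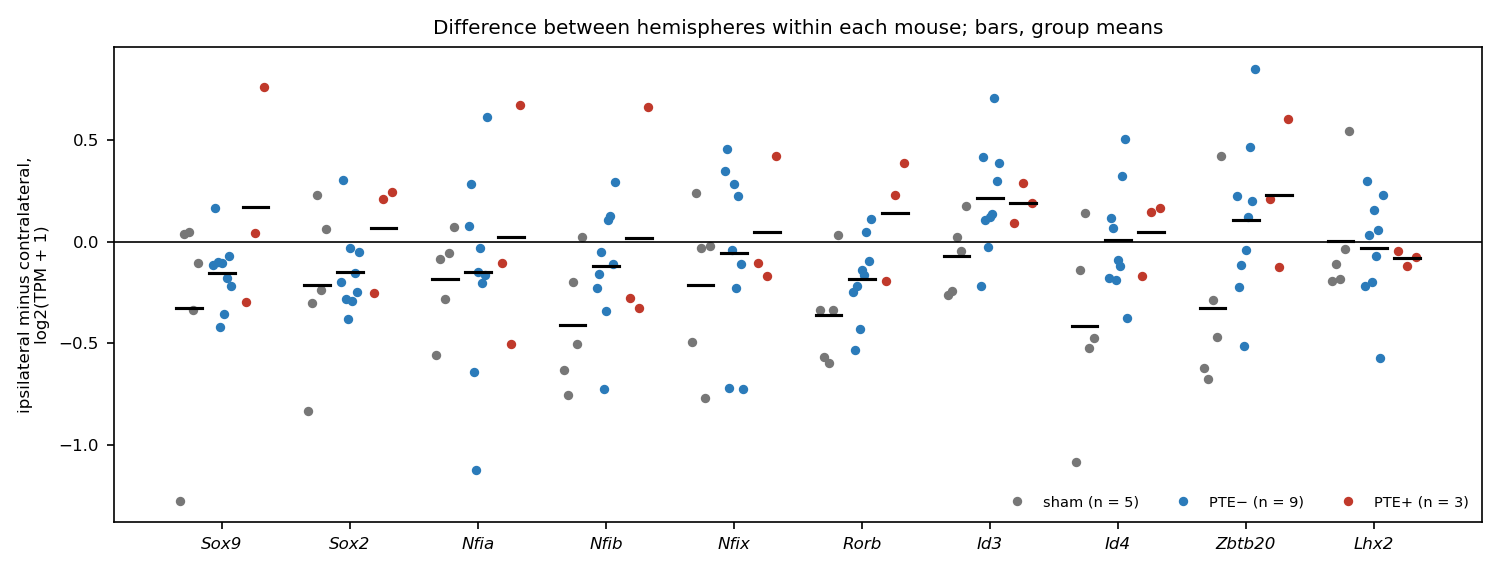
Ipsilateral minus contralateral log2(TPM + 1) within each mouse for the 10 regulators (sham grey, PTE− blue, PTE+ red), with bars at the group means. *Id3* is above 0 in 10 of 12 injured mice, and the sham means of *Id4* and *Zbtb20* lie below those of both injured groups.

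The difference between hemispheres was then compared between injured and sham mice. In the fit without the mouse as a block 0 members were called (1.93% of all genes), and with the mouse as a replicate block 3 were, where 6.5% of all genes were called. *Id4* differed most by p: the hemisphere difference averaged 0.02 in injured and −0.42 in sham mice, a gap of 0.43 (blocked SE 0.16, limma p = 0.013, adjusted p = 0.709, exact permutation p = 0.0187). Contralateral *Id4* was the higher in 4 of 5 sham mice, with ipsilateral and contralateral values of 181 and 385 TPM in mouse 8_15, 252 and 351 TPM in mouse 9_11 and 181 and 262 TPM in mouse 9_10. Without sham mouse 8_15 the gap was 0.27 (exact permutation p = 0.103).

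*Zbtb20* averaged 0.14 in injured and −0.33 in sham mice, a gap of 0.46 (blocked limma p = 0.0261, exact permutation p = 0.0451). Its contralateral level exceeded its ipsilateral level in 4 of 5 sham mice and in 5 of 12 injured mice. Leaving out single mice gave gaps from 0.38 to 0.65 and exact permutation p-values from 0.00604 to 0.125. *Id3* averaged 0.21 in injured and −0.07 in sham mice, a gap of 0.28 (blocked limma p = 0.03, exact permutation p = 0.0338), with exact p-values from 0.00893 to 0.0978 when single mice were left out. Each of these 3 gaps had the same direction among mice whose names begin with 8 (5 injured, 2 sham) and with 9 (7 injured, 3 sham).

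The other members showed no such gap past the threshold, although 9 of the 10 estimates were above 0, beside a median of 0.08 over all genes. *Sox9* differed between hemispheres by −0.08 in injured mice (exact permutation p = 0.436), and without PTE+ mouse 9_18 by −0.15 (exact permutation p = 0.0166). The PTE+ effect did not differ detectably between hemispheres for any member: 0 of 10 were called (0.749% of all genes), also with the replicate block, and *Rorb* had the smallest exact permutation p (0.0591, difference 0.33, 3 PTE+ and 9 PTE− mice).

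The names of the mice begin with 8 or 9. Its meaning is not stated in the sources used here, and each of the 6 groups held mice of both kinds. The levels were compared by this number within each hemisphere, adjusted for the 3 groups, a choice made after the values were seen. In the ipsilateral cortex 6 of the 10 members were DEGs, all higher in names with 9, where 24.3% of all genes were. *Sox9* was at 90.4, 111 and 142 TPM (lowest, median, highest) in the 7 libraries with 8 and at 118, 175 and 224 TPM in the 12 with 9. The difference of *Sox9* was 0.64 on the log2 scale (SE 0.12, limma adjusted p = 0.00997). The adjusted p was also under 0.05 for *Sox2* (0.42, p = 0.0275), *Rorb* (0.66, p = 0.0465) and *Lhx2* (0.32, p = 0.0475), all limma p-values adjusted over all genes, while *Nfib* (0.56) and *Id4* (0.31) passed unadjusted. Without PTE− mouse 9_14, whose name begins with 9, the differences of *Nfia* and *Zbtb20* were 0.82 and 0.70 in place of 0.38 and 0.17, and those of *Sox9*, *Sox2*, *Rorb* and *Lhx2* were 0.62, 0.39, 0.60 and 0.32.

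*Id3* showed no such rise in the ipsilateral cortex (−0.11). In the contralateral cortex 2 of the 10 were DEGs, beside 19.2% of all genes: *Nfia* was higher (0.48) and *Id3* lower (−0.34) in names with 9, with no adjusted p under 0.05. *Sox9* had 0.37 there (SE 0.20, limma adjusted p = 0.272). The median of all genes was shifted by 0.11 and 0.12 toward names with 9 in the ipsilateral and contralateral cortex, and the differences of *Sox9* and *Sox2* in the ipsilateral cortex exceeded that shift.

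**Figure D5:**
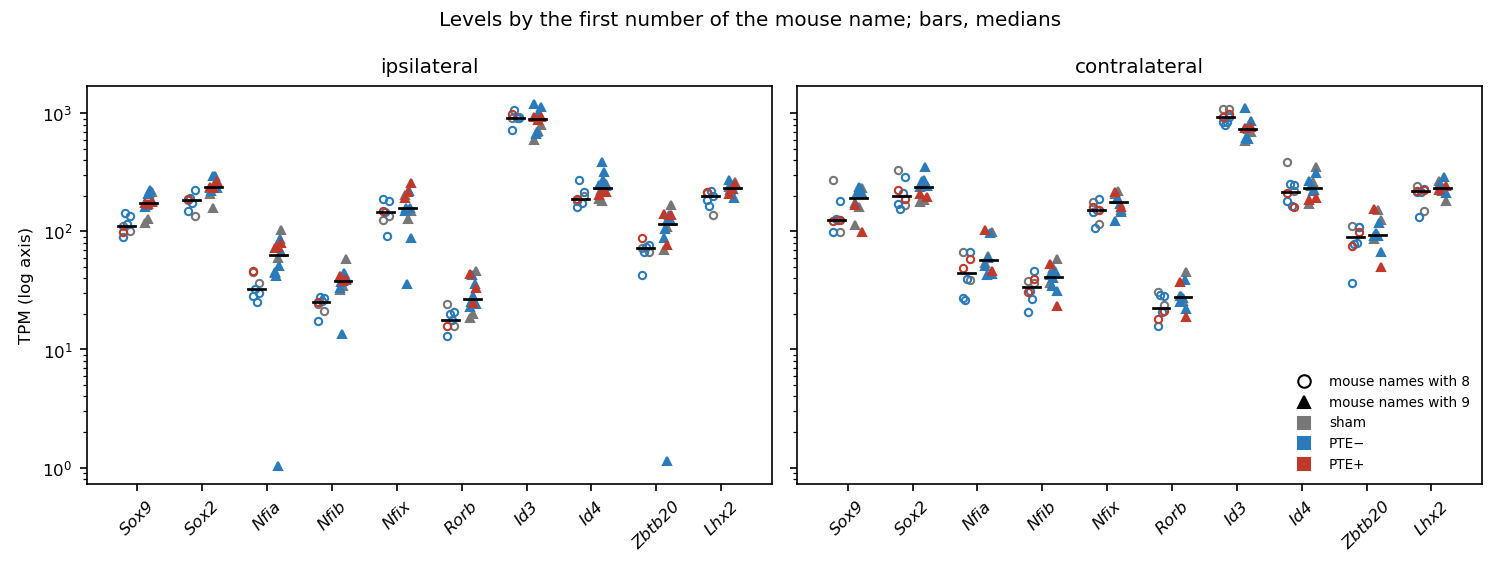
TPM on log axes of the 10 regulators in libraries of mice whose names begin with 8 (open circles) or 9 (filled triangles), coloured by group, with bars at the medians. Ipsilateral medians of *Sox9* are 111 and 175 TPM and those of *Sox2* 186 and 236 TPM.

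Over libraries several members rose and fell together, given here as a description, since the points share mice and library preparation. No grouping of the members into sets was computed. *Sox9* and *Sox2* were each other's nearest gene among 10052 genes, by the smaller of 2 Pearson r of log2(TPM + 1) over 19 ipsilateral and 18 contralateral libraries (0.84). Without ipsilateral mouse 9_14, *Tcf7l2* stood nearest to *Sox9* (0.89) and *Vgll4* to *Sox2* (0.88). *Nfib* and *Zbtb20* had r of 0.90 and 0.92 without ipsilateral mouse 9_14 in the 2 tables, and *Zbtb20* then had *Nfib* as its nearest gene of all. These pairs were not separate: *Sox9* and *Nfib* had r of 0.925 in the ipsilateral libraries without that mouse and 0.605 in the contralateral ones. With that library included, *Zbtb20* was nearest to *Lpp* and *Rest*, *Nfib* to *Myo6* and *Tnrc6b*, *Nfia* to *Sart3* and *Cacnb1*, and *Nfix* to *Fgd1* and *Rxra*. Also with that library, *Rorb* was nearest to *Phf20l1* and *Klf12*, *Id4* to *Tcea1* and *Ppid*, and *Lhx2* to *Crat* and *Nsmf*. *Id3*, with the lowest likeness of the 10, was nearest to *Galk1* and *Nt5c* (both 0.68). The second gene of *Sox9* was *Acadsb*. Without that library the nearest gene changed for these members too. It was *Mast4* for *Rorb*, *Srek1ip1* for *Id4*, *Unc119b* for *Lhx2* and *Ldhb* for *Id3*. For *Nfia* it was *Tbl1x*, for *Nfix* *Egln1* and for *Nfib* *Pbrm1*. *Id3* and *Nfix* ran opposite to each other in the contralateral libraries (r −0.54), and less so in the ipsilateral ones without mouse 9_14 (−0.24).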

How the data were processed

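RNA of ACSA-2+ astrocytes was amplified with a kit that does not mark strand and sequenced with paired ends. The authors trimmed reads with Trim Galore 0.6.4, mapped and quantified them on mm10 with Bowtie2 2.4.1 and RSEM 1.2.28, and deposited TPM for 21975 rows per hemisphere, of which 119 had no symbol. The annotation release is not given in the sources used here. DESeq2 1.36.0 was used by the authors in their own comparisons. A TPM value keeps no read count, so the depth of single libraries is unknown and no count test was run. The study gives an average number of reads per sample.

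The members and gene lists were chosen with earlier results of these data known. Members were matched by Ensembl gene_id. TPM were taken as log2(TPM + 1), and genes were kept where any compared group averaged more than 5 TPM, then fitted in limma 3.58.1 (R 4.3.3) with a trended variance, without covariates, on the libraries of the groups compared. P-values were adjusted over all genes tested (Benjamini-Hochberg). DEGs were genes that differed 1.2-fold or more with p under 0.05 before adjustment. Single members were also tested by two-sided exact permutation of libraries, or of within-mouse differences. Libraries of a group came from separate mice by their labels. The 2 hemispheres of a mouse share its name and animal: over 10235 genes the deviations of the 17 pairs from their group means correlated with a median r of 0.412 (0.0418 to 0.686), above 0.1 in 16 of 17. Alternatives were other pseudocounts, filters, normalizations and weights, 1 fit of 3 groups, the replicate block, and leaving out each library. The first number of the mouse name was added as a covariate and a contrast after the data were seen. Genes named outside the members were the largest changes of each list (up to 3 that passed), the 2 most alike genes (1 is not reported here), and markers. Positions came from GENCODE vM21 and promoters from RefSeq. The fits were tested on simulated data. Figures used matplotlib 3.10.9, and exact tests numpy 2.4.6.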

Additional observations from a re-analysis of the deposited data

Results flagged for a closer look

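Among 60 groups of 4 to 10 libraries, 7 held a value far from the others, where chance gives about 1 in 20. In ipsilateral sham mouse 9_11, *Sox9* was highest at 215.6 TPM (next 126.7), *Rorb* at 46.0 (next 24.2) and *Id4* at 252.3 (next 198.6). *Sox9* was lowest in ipsilateral PTE+ mouse 8_10 at 99.6 TPM (next 169.5). In contralateral PTE+ mouse 9_17, *Nfix* was highest at 215.2 TPM (next 159.8) and *Rorb* at 36.99 (next 21.3). *Lhx2* was lowest in contralateral PTE− mouse 8_11 at 132.3 TPM (next 211.5). Over genes with a mean above 5 TPM, ipsilateral sham mouse 9_11 had a median log2(TPM + 1) of 5.04. The other ipsilateral sham libraries had 4.56 to 4.74. Contralateral PTE+ mouse 9_17 had 5.05, and the other contralateral PTE+ libraries 4.69 to 4.77. The part of these shifts of whole libraries in the flagged values was not tested.

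The signed ipsilateral minus contralateral difference was higher in injured than in sham mice for *Id3* by 0.28 (exact permutation p = 0.0338), for *Id4* by 0.43 (exact permutation p = 0.0187) and for *Zbtb20* by 0.46 (exact permutation p = 0.0451), on the log2(TPM + 1) scale. These p-values are of 10 members tested and were not adjusted.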

How the results depend on the processing

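With the settings first used and no block, the number of members called was 0 or 1 in each comparison of groups or hemispheres. A change of 1 gene moves it. The comparison by mouse name is left out here. Brackets give the genes called among all genes tested in the same fit. With array weights it was 3 in ipsilateral CCI against sham (843 of 10434) and 2 in PTE+ against PTE− (441 of 10473). It was 3 in ipsilateral PTE− against sham (650 of 10485) and 5 in PTE+ against sham (1221 of 10447). In the contralateral cortex it was 1 in CCI against sham (608 of 10556), 1 in PTE+ against PTE− (828 of 10423) and 4 in PTE+ against sham (1114 of 10640). With the number in the mouse name as covariate it was 1 in ipsilateral CCI against sham (198 of 10434). It was 2 in ipsilateral PTE+ against sham (187 of 10447) and 1 in contralateral PTE+ against PTE− (329 of 10423). With median centring it was 0 in ipsilateral PTE+ against sham, contralateral PTE− against sham and contralateral PTE+ against sham. It was 2 with median centring in contralateral PTE+ against PTE− (361 of 10423). With quantile normalization it was 1 in contralateral PTE+ against PTE− (378 of 10423), and 1 for the injury effect between hemispheres (185 of 10695). It was 0 without a filter in contralateral PTE− and PTE+ against sham, and 0 with a fit of 3 groups in ipsilateral PTE+ and contralateral PTE− against sham. For the injury effect between hemispheres it was 3 with array weights (1015 of 10695). With the mouse as a replicate block it was also 3 (695 of 10695), and 0 members were called without the block. The block changed no other call of a member.

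Leaving out 1 library gave 0 to 2, 0 to 1, 0 to 2 and 0 to 4 members in ipsilateral CCI against sham, PTE+ against PTE−, PTE− against sham and PTE+ against sham. The 4 members in PTE+ against sham were called without sham mouse 9_11, where 1038 of 10434 genes were called. In the contralateral cortex the range was 0 to 2 members in each of the same 4 comparisons. It was 0 to 0, 0 to 1 and 0 to 0 for the hemispheres of injured mice, the injury effect and the PTE+ effect between hemispheres. In ipsilateral CCI against sham, array weights reversed *Nfia* (−0.48 to 0.12) and *Zbtb20* (−0.35 to 0.29), and *Zbtb20* ranged from −0.46 to 0.038 when single libraries were left out, the highest being without PTE− mouse 9_14. In ipsilateral PTE− against sham, array weights reversed *Zbtb20* (−0.58 to 0.22). Counts of DEGs over all genes moved more than 1.5 times: with 1 library left out from 23 to 197 (all libraries, 60) in ipsilateral PTE+ against PTE−, from 138 to 415 (169) in ipsilateral CCI against sham, from 231 to 883 (428) in contralateral CCI against sham and from 201 to 489 (291) in contralateral PTE+ against PTE−. Under the other settings the highest counts were 441, 843, 682 and 828. Against sham, ipsilateral PTE− gave 137 to 416 (161) and PTE+ 95 to 1038 (163), and contralateral PTE− 224 to 861 (397) and PTE+ 104 to 601 (210), with 1 library left out, and at most 650, 1221, 677 and 1114 under the other settings. The hemispheres of injured mice gave at most 473 (280), the injury effect between hemispheres 87 to 352 and at most 1015 (206), and the PTE+ effect 23 to 240 and at most 574 (80). Unless named here, the cause was not tested. Among 306 member fold changes under the other settings 269 kept their direction and side of the threshold, and among 551 with 1 library left out 503 did. They cover only the 39 results of members with a fold of 1.2 or more at first, outside the comparison by mouse name. *Id3* in ipsilateral CCI against sham (fold 1.18) is therefore not counted in them.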
